A study of Mus musculus with 10 samples.

Results

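Nat8f5, Atp13a4, Papss2 and Cyp4f15 are 4 genes of small-molecule metabolism and transport that stood out, among 19965 named genes, by how much higher they were in Sox1-GFP positive than in Sox1-GFP negative cells of the young mouse hippocampus. They were picked on exactly that difference, so it is given below as a description with no test, and what was tested is the age comparison within GFP-positive cells and the behaviour of related genes. All 10 samples came from papain-dissociated hippocampi of Sox1-GFP heterozygotes, mice with a reporter that makes green fluorescent protein where Sox1, a transcription factor of neural stem cells, is active. The groups were 4 samples of GFP-positive cells from old mice aged 1 year 9 months, 3 young GFP-positive samples, aged 7 months in replicate 1, 5 months in replicate 2 and 4 months in replicate 3, and 3 GFP-negative samples, also young, aged 7 months in replicates 1 and 2 and 4 months in replicate 3. The titles call them biological replicates, and whether the young fractions share mice is not stated. All groups carry the reporter on 1 allele, no treatment was given, and GFP-negative cells of old mice are not among the 10 samples. RNA was read on Affymetrix Mouse Gene 1.0 ST arrays, and every level below is a log2 value after Robust Multichip Average (RMA) normalization, on which a step of 1 is a doubling of signal.

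The products of the 4 genes work in different routes. Nat8f5 belongs to the Nat8 family of N-acetyltransferases, membrane enzymes of the endoplasmic reticulum, and human NAT8 acetylates cysteine conjugates in the last step of mercapturate formation, the route that follows glutathione conjugation. Atp13a4 is a P5-type ATPase, a family of transport ATPases in which Atp13a2 and Atp13a3 move polyamines. Papss2 makes PAPS, the activated sulfate that every sulfotransferase uses as donor. Cyp4f15 is a cytochrome P450 of a family that hydroxylates the end carbon of fatty acids and of eicosanoids such as leukotriene B4. Astrocytes of the brain express many drug and lipid metabolising enzymes and share many transcripts with radial neural stem cells.

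The sorted fractions were checked against markers of the cell types a hippocampal suspension can hold. The GFP-positive label in the samples' source field is that of neural stem and progenitor cells. Of 12 astrocyte markers 11 were higher in young GFP-positive than in young GFP-negative cells, of 8 stem and progenitor markers 4 were, and all 8 microglia, 7 mature oligodendrocyte, 6 oligodendrocyte precursor and 7 endothelial markers were lower (limma, adjusted p under 0.05). The mean astrocyte level lay between 10.10 and 10.56 in the 7 GFP-positive samples and between 7.22 and 8.04 in the GFP-negative ones. The stem and progenitor level lay between 7.97 and 8.20 against 7.16 to 7.27. Sox1 itself had a mean of 7.48 ± 0.14 (SD, n = 3) where GFP was high, against 7.20 ± 0.11 (SD, n = 3) where it was absent, a difference that missed the threshold (adjusted p = 0.123 by limma). Of the other lists, 1 of 8 neuron markers was higher and 1 lower, 1 of 8 mural and fibroblast markers higher and 4 lower, and 1 of 9 choroid plexus and ependymal markers higher. Astrocytes and radial stem cells share many of the markers that were higher, so these lists do not separate them. In sorted bulk samples, fewer cells of a type and less RNA per cell cannot be told apart. Libraries that stood apart were both young replicate 1 samples, in which the choroid plexus gene Ttr had 12.59 (GFP-positive) and 12.69 (GFP-negative), both young replicate 2 samples, in which it had 9.53 and 9.26 against 5.88 to 7.83 in the other 6 samples, and old replicate 3, in which the female X-chromosome RNA Xist had 11.90 against 4.95 to 5.69 elsewhere.

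RefSeq promoter windows of the 4 genes (GRCm38.p6) are shown to give the sequence at the start of each gene. That the 4 genes were high in one fraction and low in the other is how they were chosen, so it lends no weight to letters they share. All 4 genes matched the table, with 6 start sites between them, and up to 250 bases before a start are given 5′ to 3′ on the gene's strand, cut short where the annotated gene begins earlier. Capitals mark the letters GCCAAT or, on the other strand, ATTGGC, which overlap both the CCAAT box and the site GCCAA known for nuclear factor I proteins. Windows in order are chr6:85820973-85821222 on the minus strand, chr16:29544865-29545114 on the minus strand (the outer of 2 starts), chr19:32595465-32595668 on the plus strand (the outer of 2), chr19:32619755-32620004 on the plus strand (the inner start) and chr17:32685409-32685630 on the plus strand.
Nat8f5: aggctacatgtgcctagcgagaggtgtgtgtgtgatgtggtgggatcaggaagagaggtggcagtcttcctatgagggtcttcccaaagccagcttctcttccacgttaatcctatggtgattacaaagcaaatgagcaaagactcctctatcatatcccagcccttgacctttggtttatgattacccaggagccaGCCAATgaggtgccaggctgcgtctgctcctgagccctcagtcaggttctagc
Atp13a4 outer start: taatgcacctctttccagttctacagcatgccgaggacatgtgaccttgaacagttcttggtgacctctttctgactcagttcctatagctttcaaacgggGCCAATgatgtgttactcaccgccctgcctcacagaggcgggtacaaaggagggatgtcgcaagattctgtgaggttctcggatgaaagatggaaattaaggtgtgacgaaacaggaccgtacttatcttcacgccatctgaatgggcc
Papss2 outer start: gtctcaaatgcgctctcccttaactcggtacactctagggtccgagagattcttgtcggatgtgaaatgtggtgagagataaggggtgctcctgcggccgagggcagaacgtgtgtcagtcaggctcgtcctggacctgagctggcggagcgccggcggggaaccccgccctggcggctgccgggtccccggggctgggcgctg
Papss2 inner start: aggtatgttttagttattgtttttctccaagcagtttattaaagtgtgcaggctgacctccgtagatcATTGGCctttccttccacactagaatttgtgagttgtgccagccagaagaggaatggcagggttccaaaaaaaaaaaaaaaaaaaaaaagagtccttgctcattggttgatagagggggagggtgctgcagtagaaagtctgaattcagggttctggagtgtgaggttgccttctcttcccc
Cyp4f15: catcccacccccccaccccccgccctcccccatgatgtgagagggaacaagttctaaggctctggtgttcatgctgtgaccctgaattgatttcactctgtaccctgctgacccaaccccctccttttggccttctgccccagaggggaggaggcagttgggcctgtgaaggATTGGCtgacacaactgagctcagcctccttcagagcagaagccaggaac

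The letters GCCAAT, searched on both strands after the sequences had been read, occurred in 4 of the 6 windows of 250 bases, 1 window for each gene, and in 13.4% of the 32817 distinct promoter windows of that length in the table. The letters were chosen with these sequences in view, so setting them beside the share of all windows is no test of enrichment. Atp13a4 and Papss2 also had 2 windows each in which to match. The match began 53 bases before the start in Nat8f5, 149 before the outer start of Atp13a4, 182 before the inner start of Papss2 and 78 before that of Cyp4f15. Neither the inner Atp13a4 window nor the outer Papss2 window held it. The shorter CCAAT occurred in 33.8% of all windows and GCCAA in 41.5%. The letters ACAAT, a core that Sox proteins bind, were found in the inner windows of Atp13a4 and Papss2 and in 27.7% of all windows, and TATAAA in 0 of the 6 and in 12.4% of all. The outer Papss2 start was the only one of the 6 that was rich in CpG, with 24 CpG pairs and 67.6% G and C in 250 bases, against medians of 6 and 52.4% over all windows, while the other 5 windows had 1 to 9. A match describes the letters only, and which start was used in these cells was not measured.

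Nat8f5 had the widest gap between the fractions of all named genes. Its values were 7.70, 8.24, 7.71 and 8.46 in old GFP-positive replicates 1 to 4, 8.64, 8.02 and 8.12 in young GFP-positive replicates 1 to 3, and 3.19, 3.43 and 3.44 in young GFP-negative replicates 1 to 3. Both GFP-positive groups interleaved, and the lowest GFP-positive value lay 4.26 above the highest GFP-negative one. The young fractions did not overlap for 38.9% of all genes, and 17.0% passed limma's test at an adjusted p under 0.05 and 30.4% at an unadjusted p under 0.05, but the 4 genes were chosen on this contrast. Among young mice the difference was 4.91, or 30.0-fold, and between old GFP-positive and young GFP-negative cells it was 4.67, or 25.5-fold. Both differences share the same 3 GFP-negative samples, on which the choice rested, so the second lends the first no separate weight. The GFP-negative values lie near the low end of the table, whose lowest gene value is 2.05, and without detection calls they are not shown to be above background, so that these folds describe the array values and not the ratio of transcripts.

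Atp13a4 was measured by 3 probe sets, and the brightest is reported. It read 10.11, 9.85, 10.17 and 10.23 in the old GFP-positive samples, 10.36, 10.02 and 9.97 in the young GFP-positive samples and 6.33, 5.93 and 6.28 in the young GFP-negative samples. The GFP-positive samples kept within 0.51 of each other, and none came near the GFP-negative values. That range was the narrowest among the 4 genes but close to the median of 0.55 over all genes. The difference was 3.94 (15.3-fold) in young mice and 3.91 (15-fold) for old GFP-positive against young GFP-negative cells. The other 2 probe sets had values between 9.78 and 10.42 in GFP-positive and between 5.87 and 6.29 in GFP-negative samples. All 3 stand for transcripts of the same gene, and how far they share probes was not tested. Their likeness is therefore not separate evidence.

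Papss2 was even in old mice, with 9.71, 9.61, 9.63 and 9.77 in replicates 1 to 4. In the young GFP-positive samples it had 9.62, 9.76 and 8.66, and in the GFP-negative samples 5.55, 5.62 and 5.42. Young GFP-positive replicate 3, labelled 4 months, lay below the other 6 GFP-positive samples, which kept between 9.61 and 9.77. That sample also had the lowest astrocyte level (10.10), the lowest Gfap value (8.54 against 9.51 to 10.16) and the highest microglia level (6.53) of the 7 GFP-positive samples, and their part in the Papss2 value was not tested. The difference between the fractions was 3.82 (14.1-fold) in young mice, 4.16 without that sample, and 4.15 (17.7-fold) for old GFP-positive against young GFP-negative cells.

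Cyp4f15 had 9.91, 9.90, 9.83 and 9.78 in the old samples, 10.31, 9.92 and 9.79 in the young GFP-positive samples and 6.16, 6.45 and 6.0 in the GFP-negative samples. Young replicate 1 was the highest of the 7 GFP-positive samples, as it was for Nat8f5 and Atp13a4. The difference was 3.80 (14.0-fold) in young mice and 3.65 (12.6-fold) for old GFP-positive against young GFP-negative cells.

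**Figure D1:**
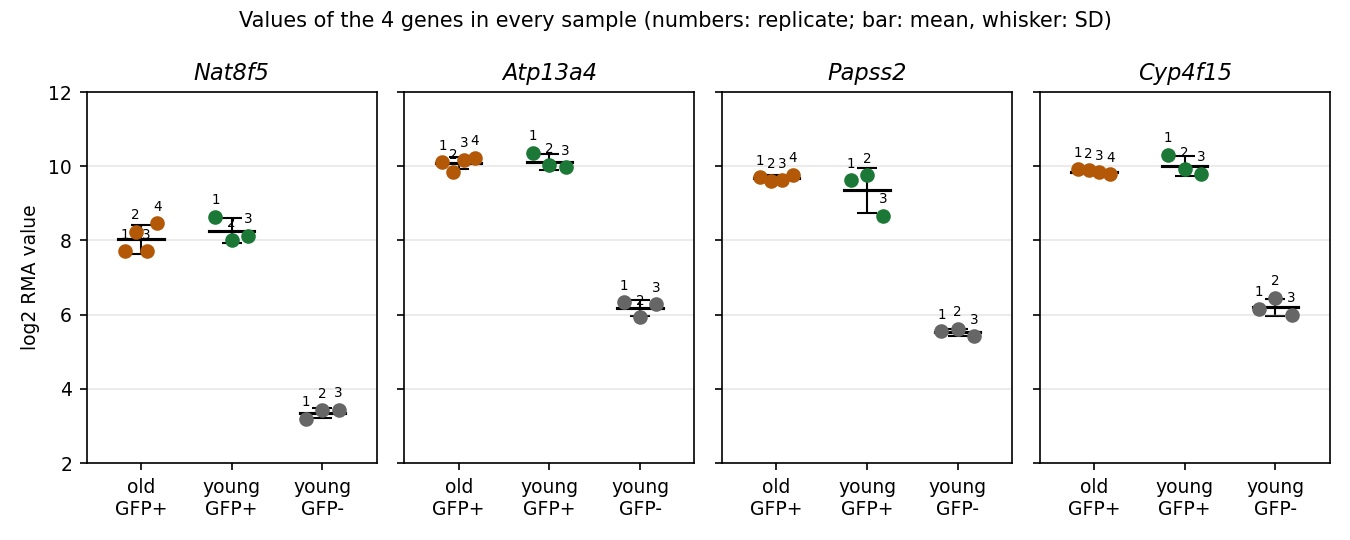
Log2 RMA value of Nat8f5, Atp13a4, Papss2 and Cyp4f15 in each of 4 old GFP-positive, 3 young GFP-positive and 3 young GFP-negative samples, with the replicate number beside each point, the group mean as a bar and the SD as a whisker. Old and young GFP-positive points overlap in every panel, and the lowest GFP-positive point lies 3.04 (Papss2) to 4.26 (Nat8f5) above the highest GFP-negative point.

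By size of the young difference the 4 genes ranked 1, 2, 5 and 6 among all named genes. Ranks 3 and 4 were taken by Slc39a12, a zinc transporter (3.92), and Aqp4, the astrocyte water channel (3.82), which belong to other groups of genes. Just below Cyp4f15 at 3.80 came Lix1 (3.79), Plcd4 (3.77), a phospholipase C, and Elovl2 (3.74), which elongates polyunsaturated fatty acids, so no step separates the 4 genes from those that follow. In the ranking of old GFP-positive against young GFP-negative cells, with the same GFP-negative samples, they stood at 1 (Nat8f5), 2 (Papss2), 4 (Atp13a4) and 9 (Cyp4f15).

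In the GFP-negative samples the values of the 4 genes spanned 0.19 for Papss2, 0.25 for Nat8f5, 0.40 for Atp13a4 and 0.45 for Cyp4f15. Among other genes of high rank the span was 1.89 for Aqp4, 1.76 for Slc39a12, 1.38 for Lix1 and 1.10 for Elovl2. Plcd4, at 0.12, and the matrix gene Hapln1, at 0.24, had spans as small. The span over these samples was not worked out for all genes, so it is not shown to be narrow for the 4 genes. GFP-negative replicate 3 had an Aqp4 value of 5.91 against 7.58 and 7.80 in replicates 1 and 2, and its astrocyte level was 7.22 against 7.99 and 8.04. In that sample Nat8f5 was the highest of its 3 GFP-negative values and Papss2 and Cyp4f15 were the lowest of theirs. The table holds no detection call, so that a gene near the bottom of its range in all 3 samples cannot be told from one that is not expressed, and the spans were not tested.

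Genes with the most similar profiles were sought over all 10 samples, by the root mean square distance between log2 values after each gene was centred on its own mean. Plcd4 was nearest to Papss2 at a distance of 0.16 and to Atp13a4 at 0.18. It repeated the dip of Papss2 in the 4-month-old sample, with 8.75 there against 9.49 and 9.37 in young GFP-positive replicates 1 and 2. The dip was not particular to this pair. Lix1 had 9.57 in that sample against 10.37 and 10.56, and Elovl2 8.50 against 9.30 and 8.89. Nat8f5, with 8.12 against 8.64 and 8.02, was not lowest there. Hapln1, which encodes a link protein of the hyaluronan matrix, was nearest to Cyp4f15 at 0.21 and was also close to Atp13a4 at 0.23. Cldn10, a claudin, was next after these for Cyp4f15 at 0.23. For Nat8f5 the nearest gene was Atp13a4 itself at 0.49, followed by Plcd4 at 0.54 and Papss2 at 0.55. The distance was not scaled for the size of the gap between the fractions. The wider gap of Nat8f5, 4.91 in young mice against 3.94 for Atp13a4, therefore adds to its distances, which do not show a distinct pattern. Plcd4 also lay close to Cyp4f15 at 0.22. Among the 4 genes Cyp4f15 was 0.25 from Atp13a4 and 0.34 from Papss2, and Atp13a4 was 0.32 from Papss2. These distances describe 10 arrays, include the contrast on which the genes were chosen, and carry no test.

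**Figure D2:**
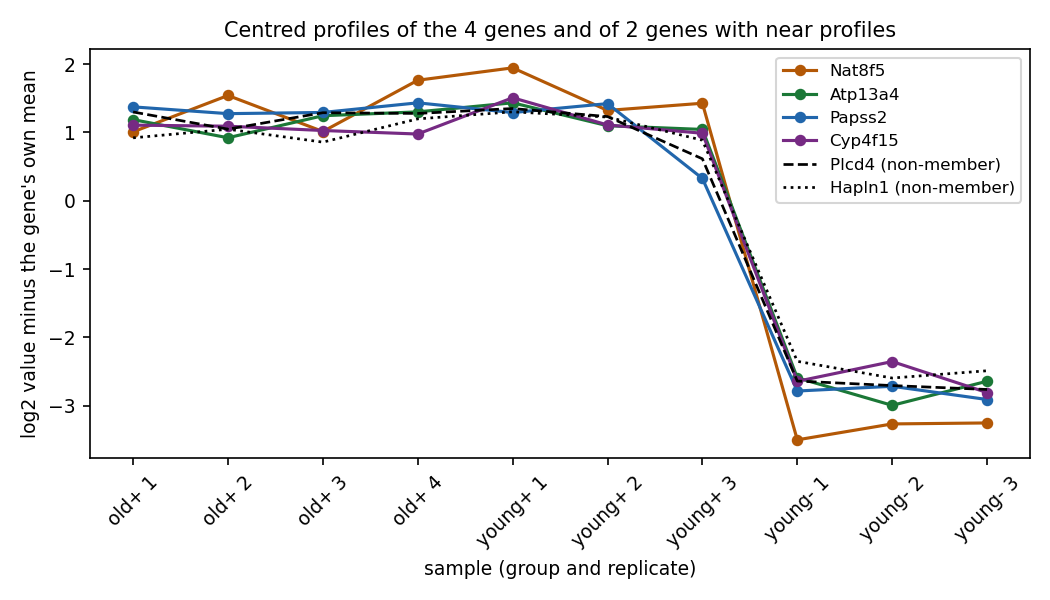
Log2 value minus the gene's own mean over 10 samples (y axis) for the 4 genes (coloured lines) and for Plcd4 and Hapln1 (dashed and dotted), by sample (x axis; + and - mark GFP-positive and GFP-negative). All lines fall between the GFP-positive and GFP-negative samples, and Papss2 and Plcd4 dip together in young GFP-positive replicate 3.

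The age comparison asked whether GFP-positive cells of old mice differ from those of young mice, and none of the 4 genes passed limma's adjusted test. Nat8f5 was 8.03 ± 0.38 (SD, n = 4) in old and 8.26 ± 0.33 (SD, n = 3) in young cells, a log2 difference of -0.23 ± 0.21 (SE, limma adjusted p = 0.686). Its 95% interval ran from 0.618-fold to 1.17-fold. Atp13a4 had 10.09 ± 0.17 (SD, n = 4) and 10.12 ± 0.21 (SD, n = 3), a difference of -0.028 ± 0.15 (SE, limma adjusted p = 0.949) with an interval from 0.784-fold to 1.23-fold. These intervals leave out a 2-fold change with age in either direction, though not a smaller one.

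Papss2 differed most between the ages, 9.68 ± 0.074 (SD, n = 4) in old against 9.35 ± 0.60 (SD, n = 3) in young cells, or 0.33 ± 0.22 (SE, limma adjusted p = 0.598), with an interval from 0.904-fold to 1.75-fold. Without young GFP-positive replicate 3 it was -0.013 ± 0.12 (SE, limma adjusted p = 0.970). Cyp4f15 had 9.86 ± 0.060 (SD, n = 4) against 10.01 ± 0.27 (SD, n = 3), a difference of -0.15 ± 0.15 (SE, limma adjusted p = 0.703) and an interval from 0.721-fold to 1.12-fold. Leaving out young GFP-positive replicate 1, the GFP-positive sample highest in Ttr, brought it to 0.0019, and leaving out replicate 2, the next highest, to -0.20. Without old replicate 3, the sample with high Xist, the 4 differences were -0.13, -0.055, 0.35 and -0.14 in the order Nat8f5, Atp13a4, Papss2 and Cyp4f15. Over all genes 3 of 19965, or 0.015%, passed this test, all lower in old cells, and without old replicate 3 the calls were 2 higher and 0 lower. Of all genes 2028, or 10.2%, had an unadjusted p under 0.05. The comparison shares the 3 young GFP-positive samples with the contrast on which the 4 genes were chosen.

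**Figure D3:**
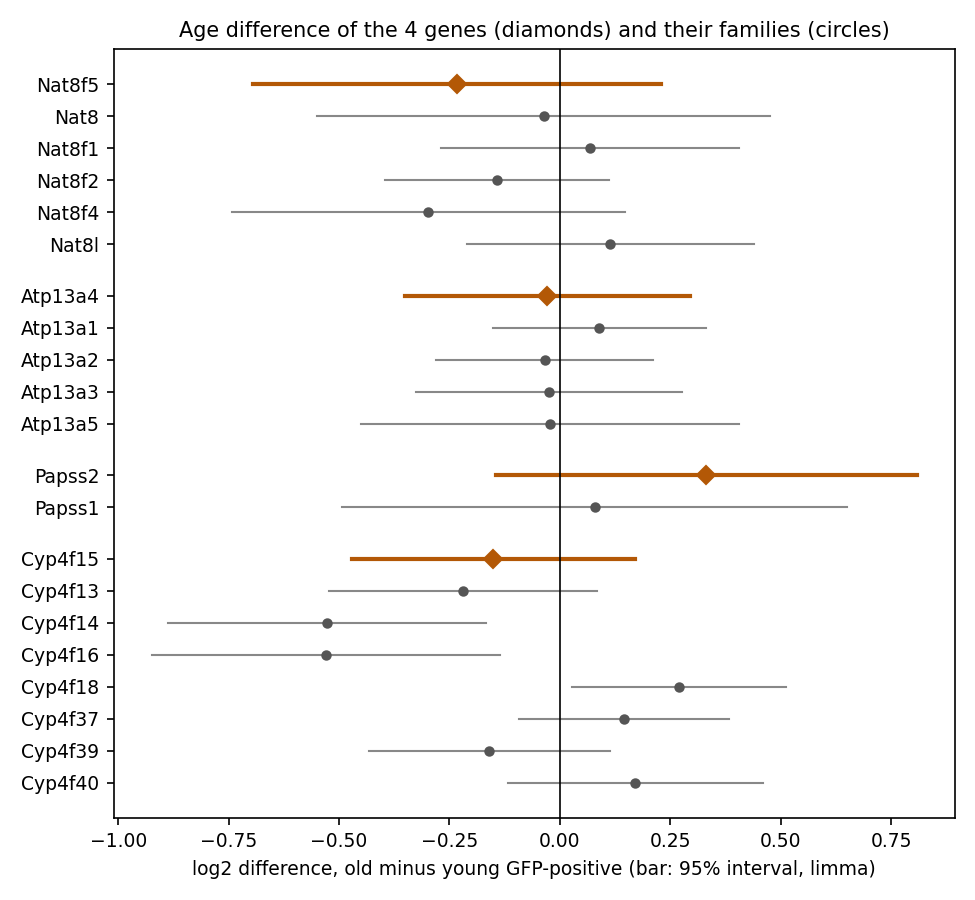
Log2 difference, old minus young GFP-positive cells (x axis), with its 95% interval from limma, for the 4 genes (diamonds) and the measured genes of their families (circles). The intervals of all 4 genes include 0, from -0.23 for Nat8f5 to 0.33 for Papss2, and no gene in the plot passed the adjusted test.

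Whether the relatives of each gene followed it was examined in the comparison of young GFP-positive with GFP-negative cells, in which 17.0% of all genes passed limma's test at an adjusted p under 0.05, 7.68% higher and 9.3% lower in GFP-positive cells. Of 149 measured genes on 8 lists of family members and route partners, without the 4 genes themselves, 50 passed, 29 higher and 21 lower, at a median of 0.13 against 0.098 over all genes. The share of 33.6% was above that of all genes, but the lists were chosen with results of these data known. The families are described in turn.

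Most measured Nat8 family genes were higher in the fraction in which Nat8f5 was high. Of 5 measured relatives 4 were higher in GFP-positive cells and 0 lower, with a median of 1.20. Nat8, the family's founding enzyme, had 8.10, 7.57 and 7.69 in young GFP-positive and 5.01, 5.96 and 5.69 in GFP-negative samples. The groups did not overlap, and the difference was 2.23 ± 0.25 (SE, 4.70-fold, limma adjusted p = 8.42e-05). Nat8f4 (1.36, adjusted p = 0.00107), Nat8f1 (1.20, adjusted p = 0.000377) and Nat8f2 (0.75, adjusted p = 0.00136) were higher by less. Nat8l, which makes N-acetylaspartate in neurons and is related only distantly, had 0.16 (limma, adjusted p = 0.503). Probe sequences were not used here, so how far probes are shared between the similar Nat8 family genes was not tested, although no 2 of them had identical values.

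The mercapturate route supplies and removes the conjugates that the human family member acetylates. On the list made for it, 6 of 21 measured genes were higher and 2 lower, at a median of 0.24. Mgst1, a membrane-bound glutathione transferase, was higher by 2.38 ± 0.26 (SE, limma adjusted p = 6.62e-05) and the cytosolic transferase Gstm1 by 2.19 ± 0.22 (SE, limma adjusted p = 3.91e-05). Another cytosolic transferase, Gstp1, was lower, at -1.38 ± 0.17 (SE, limma adjusted p = 0.000167). The other lower gene, Aspa, was listed although it cleaves N-acetylaspartate, in oligodendrocytes, and not a conjugate of this route. It was lower by 3.05 on the log2 scale, at -3.05 ± 0.25 (SE, limma adjusted p = 1.01e-05). The mature oligodendrocyte markers were lower too, with a mean level of 8.05 to 8.75 in young GFP-positive and 10.64 to 11.16 in GFP-negative samples. So were the markers of microglia, oligodendrocyte precursors and endothelium, and the part of any such shift in the Aspa value was not tested. The gamma-glutamyl transferase gene Ggt7 was higher by 0.68 (adjusted p = 0.00392), while Ggt1 (0.20, adjusted p = 0.241), the classical enzyme of this step, did not pass.

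No other P5-type ATPase was higher past the test: of the 4 relatives 0 were higher and 1 was lower. Atp13a3 had 7.26, 7.05 and 7.14 in young GFP-positive and 7.81, 7.63 and 8.14 in GFP-negative samples, a difference of -0.71 ± 0.15 (SE, limma adjusted p = 0.00583). Atp13a5, the gene next to Atp13a4 on the chromosome, had 7.99, 8.13 and 8.43 against 8.45, 8.40 and 7.68, with a difference of 0.0048 ± 0.21 (SE, limma adjusted p = 0.991). Its groups overlapped throughout. Atp13a1 (-0.033, adjusted p = 0.866) and the lysosomal polyamine exporter Atp13a2 (0.17, adjusted p = 0.358) did not pass either.

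Of 22 measured polyamine genes 3 were higher and 1, Atp13a3 again, was lower, or 18.2% past the test in all, close to the share of all genes. The catabolic enzymes Smox, spermine oxidase (0.85 ± 0.21, SE, limma adjusted p = 0.0147), and Sat1, spermidine and spermine acetyltransferase (0.84 ± 0.22, SE, adjusted p = 0.0241), were higher, as was Paox, polyamine oxidase (0.38, adjusted p = 0.0483). Single samples decided all 3 calls. Paox was lost without any 1 of the 6 young samples or old replicate 1 or 2, with adjusted p from 0.0612 to 0.142. Without GFP-negative replicate 2 or GFP-positive replicate 2 the adjusted p was 0.0688 and 0.0608 for Smox and 0.103 and 0.088 for Sat1, which was lost without GFP-positive replicate 1 as well (0.070). Odc1, ornithine decarboxylase, the first enzyme of synthesis, had -0.30 (adjusted p = 0.558).

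Papss1, the other PAPS synthase, was lower in GFP-positive cells. It had 7.94, 8.18 and 7.48 in young GFP-positive and 8.84, 9.04 and 8.82 in GFP-negative samples. The groups did not overlap, and the difference was -1.03 ± 0.28 (SE, limma adjusted p = 0.0252). The call was lost when young GFP-positive replicate 1 (adjusted p = 0.0581) or replicate 3 (0.0883) was left out, and when GFP-negative replicate 1 (0.0636) or 2 (0.0889) was, with differences between -1.07 and -0.84. In old GFP-positive cells Papss1 ranged from 7.46 to 8.66. Over the sulfate list of 11 measured genes 3 were higher and 1 lower, at a median of 0.073. The anion exchanger Slc26a6 was higher by 0.75 ± 0.12 (SE, limma adjusted p = 0.000949), and the sulfate transporter Slc26a1 by 0.61 (adjusted p = 0.0228), a call lost without GFP-positive replicate 1 (0.0695) or 3 (0.0632) or GFP-negative replicate 1 (0.0966) or 2 (0.0896).

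The sulfotransferases, which use the PAPS that both synthases make, had 3 of 40 measured genes higher and 5 lower, at a median of 0.022. That is 20.0% past the test, close to the share of all genes. Chst1, which sulfates keratan sulfate, had the largest difference upward, with 9.78, 9.72 and 9.70 in young GFP-positive against 8.34, 8.05 and 7.36 in GFP-negative samples, a difference of 1.82 ± 0.20 (SE, limma adjusted p = 7.90e-05). Hs3st1, a heparan sulfate 3-O-sulfotransferase, was lower by 1.93 on the log2 scale, at -1.93 ± 0.18 (SE, adjusted p = 1.91e-05), and Ust, which sulfates uronic acids of dermatan and chondroitin sulfate, had -1.65 ± 0.20 (SE, adjusted p = 0.000131). The sulfated product was not measured.

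In the Cyp4 family 4 of 16 measured relatives were higher and 0 lower, at a median of 0.26. Cyp4f14, the leukotriene-hydroxylating enzyme of mouse liver, had 7.89, 7.66 and 7.42 in young GFP-positive and 4.97, 4.94 and 4.97 in GFP-negative samples. The difference was 2.70 ± 0.17 (SE, 6.49-fold, limma adjusted p = 1.76e-06). Cyp4v3 (1.21, adjusted p = 0.00272), a fatty acid hydroxylase, Cyp4f13 (1.00, adjusted p = 0.000622) and Cyp4f16 (0.78, adjusted p = 0.0154) were higher too, the last not without GFP-negative replicate 1 (0.0686) or 2 (0.0571). The other 4 measured Cyp4f genes, Cyp4f18 (0.066), Cyp4f37 (0.30), Cyp4f39 (0.40) and Cyp4f40 (0.18), did not pass. As for the Nat8 family, shared probes among these similar genes were not tested.

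The list of P450 electron donors and arachidonate enzymes was divided, with 6 of 32 measured genes higher and 12 lower at a median of 0.039. Por, the reductase that passes electrons to Cyp4f15 and other microsomal P450 enzymes, was higher by 0.67 (limma, adjusted p = 0.0115), a call lost without both young replicate 1 samples (0.0978). Ephx2, the soluble epoxide hydrolase, which opens the epoxides that P450 enzymes make from arachidonate, had 7.98, 8.21 and 7.35 in young GFP-positive and 4.88, 4.65 and 4.63 in GFP-negative samples. The difference of 3.12 ± 0.20 (SE, 8.72-fold, limma adjusted p = 1.44e-06) was the largest positive one on the 8 lists. On the other side stood Hpgds, prostaglandin D synthase of blood and microglial cells (-3.36 ± 0.18, SE, limma adjusted p = 7.69e-07), and Alox5ap, the protein that presents arachidonate to 5-lipoxygenase on the way to leukotrienes (-2.56 ± 0.16, SE, adjusted p = 1.44e-06). Both moved with the microglia markers, whose mean level was 5.87 to 6.53 in young GFP-positive and 9.38 to 10.02 in GFP-negative samples, and the part of that shift was not tested.

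**Figure D4:**
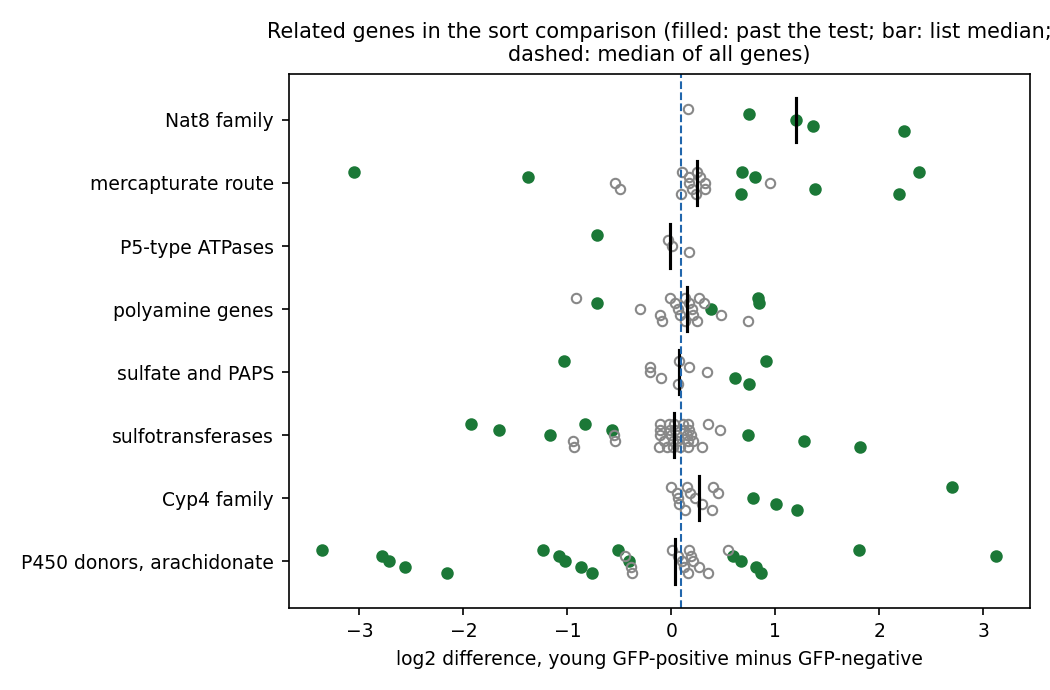
Log2 difference, young GFP-positive minus GFP-negative cells (x axis), of the measured genes on each list of related genes (rows), filled where limma's adjusted p was under 0.05, with the list median as a black bar and the median of all genes (0.098) dashed. The Nat8 family sits to the right with a median of 1.20, while the arachidonate list runs from -3.36 to 3.12.

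With age 0 of the 149 relatives passed limma's adjusted test, and 18 had an unadjusted p under 0.05. Among the Cyp4f genes Cyp4f14 and Cyp4f16 had the smallest p. Cyp4f14 had 6.81, 7.34, 6.96 and 7.42 in old against 7.89, 7.66 and 7.42 in young GFP-positive cells, the highest old value lying just under the lowest young one, with a difference of -0.53 (limma, unadjusted p = 0.00797, adjusted p = 0.336). Old and young samples did not overlap for 10.9% of all genes. Cyp4f16 also had -0.53 (limma, unadjusted p = 0.0128, adjusted p = 0.381), and Cyp4f18 had 0.27 (unadjusted p = 0.0318, adjusted p = 0.451).

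Position on the chromosome was examined as a property that the choice had not used, with up to 3 measured coding genes on each side in the RefSeq gene order, a comparison added after the other values had been seen. Of the 22 neighbours reported, 6 each for Nat8f5, Atp13a4 and Cyp4f15 and 4 for Papss2, 5 were higher, 3 lower and 14 not past the test. Over all genes 7.68% were higher and 9.3% lower. All of the 5 higher neighbours except Alms1 are relatives already counted above, namely Nat8, Nat8f2, Nat8f4 and Cyp4f16. The count therefore repeats those calls and adds no separate evidence, and probes shared within these families were not tested. On chromosome 6 the 3 following genes, Nat8, Nat8f2 and Nat8f4, and the preceding Alms1, a gene of the ciliary base (0.80, limma adjusted p = 0.00917), were all higher, so that Nat8f5 lies in a run of 4 neighbours higher past the test, 3 of them of its own family. Around Atp13a4 on chromosome 16 none was higher past the test. Mb21d2 was lower (-0.73, adjusted p = 0.0177), and the Notch target Hes1 had 1.00 (adjusted p = 0.0502). Around Papss2 on chromosome 19 Asah2, a ceramidase (-1.55, adjusted p = 0.000333), and Sgms1, a sphingomyelin synthase (-1.20, adjusted p = 0.00749), were lower and 0 higher among the 4 reported, 3 on one side and 1 on the other. Around Cyp4f15 on chromosome 17 Cyp4f16 passed, while the adjacent Cyp4f40 (0.18) and Zfp871 (0.32) did not.

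**Figure D5:**
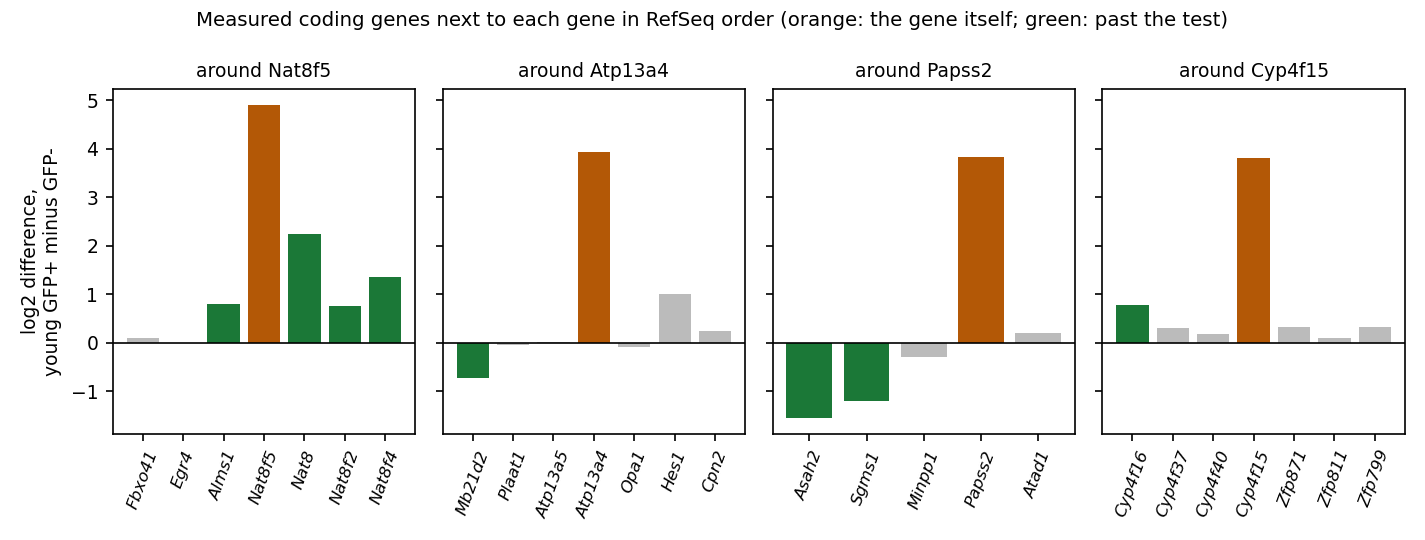
Log2 difference, young GFP-positive minus GFP-negative cells (y axis), of each of the 4 genes (orange) and up to 3 of the nearest measured coding genes on each side in RefSeq order (x axis), green where limma's adjusted p was under 0.05 and grey otherwise, with 4 neighbours shown for Papss2 and 6 for each other gene. Nat8f5 is flanked by 4 genes that are also higher, while Papss2 (3.82) stands next to genes between -1.55 and 0.21.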

How the data were processed

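The deposited table holds log2 expression values that the authors made with RMA, per the submitters' processing notes. Per the labels and the series text, cells were sorted by GFP, RNA was amplified with a NuGEN kit, and the authors mapped probes to RefSeq genes of mm9 and removed 1 young array; which one is not given. The series text gives young mice as 5 to 7 months, but 2 titles say 4 months, and the titles were followed. RMA sets the probe signals of all arrays to 1 distribution and compresses changes of dim genes. The deposited values are not on exactly 1 distribution, since array medians ran from 6.54 to 6.66. The number of arrays limits the precision, and p-values measure the spread between samples that the titles call biological replicates.

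Of 31672 probe sets, 24590 matched 1 symbol in RefSeq (GRCm38.p6, used for names, gene order and promoter sequences, with coordinates only for the promoters), 0 several and 7082 none. Per gene the probe set with the highest mean over all 10 samples was kept, which left 19965 genes. They were tested with limma 3.58.1 in R 4.3.3 (lmFit and eBayes, 3 group means, all 10 samples, two-sided, 7 residual and 4.07 prior degrees of freedom) with p-values adjusted by Benjamini-Hochberg across the 19965 genes and a threshold of 0.05. SE is limma's moderated error. The script was tested on simulated data. The authors' SAM was not installed. Figures used matplotlib 3.10.9.

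The members, lists and tests were chosen with earlier results of these data known. Named were the 4 genes, their measured family members, the 3 genes of each other list with the smallest p among those past the test, the nearest ranks, the 3 nearest profiles and a few checks. Ggt7, Ggt1, Paox, Odc1, Cyp4v3, Por, Gfap, Hs3st3a1, Gstp1 and the chromosomal neighbours were named after their values were seen, and 2 such neighbours, on the Papss2 side, are not reported here for a reason unrelated to their values. Same-numbered samples were not treated as pairs, since the titles state no pairing and give number 2 different ages. Ttr was nevertheless similar in young samples of the same number. The deviations of young GFP-positive and GFP-negative samples from their group means correlated at 0.124, 0.021 and 0.191 for numbers 1, 2 and 3. For young samples of unlike number they correlated between -0.176 and 0.078. Whether the young fractions were paired was not tested.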

Additional observations from a re-analysis of the deposited data

How the results depend on the processing

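All 4 age differences stayed short of the test under all 68 combinations of gene and alternative, and 7 of these turned the sign. Leaving out 1 sample at a time gave -0.38 to -0.043 for Nat8f5, -0.10 to 0.093 for Atp13a4, -0.013 to 0.54 for Papss2 and -0.26 to 0.0019 for Cyp4f15. Repeated quantile normalization gave 0.036 for Atp13a4, and leaving out both young replicate 1 samples gave 0.093 for Atp13a4 and 0.0019 for Cyp4f15. The cause was not tested.

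The number of genes past the age test, 3, became 0 with the replicate block, with only the 2 groups compared and with repeated quantile normalization, 20 with array weights (4 higher, 16 lower), 5 with the mean of each gene's probe sets (2 higher, 3 lower), 5 with all named probe sets (2 higher, 3 lower) and 5 without both young replicate 1 samples (all lower). It ranged from 0 to 9 with 1 sample left out. In the 10 settings with 0 calls by limma, 1601 to 3113 genes had an unadjusted p under 0.05. The 0 relatives past the age test (18 at an unadjusted p under 0.05) became 1 with array weights, Gstp1 (-0.92, adjusted p = 0.0401), and 0 to 1 with 1 sample left out. In the sort comparison 5736 genes passed with array weights (3035 higher, 2701 lower) and 1841 without both young replicate 1 samples, against 3390, and the relatives past it ranged from 35 to 66 over all alternatives, against 50. With the replicate block 48 relatives and 3285 genes passed it, and Sat1 did not (limma, adjusted p = 0.0515). The differences with age were then -0.38 (Nat8f5), -0.074 (Atp13a4), 0.30 (Papss2) and -0.13 (Cyp4f15). The block also joins old samples to young ones by number. Whether the numbers pair any samples is not stated, so this fit is given only here.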

Other observations

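One sulfotransferase gene split the old samples. Hs3st3a1, a heparan sulfate 3-O-sulfotransferase that uses PAPS, had 7.68, 7.5, 5.59 and 7.82 in old GFP-positive replicates 1 to 4, 5.30, 6.07 and 4.93 in young GFP-positive samples and 4.81, 5.09 and 4.98 in young GFP-negative samples. The old minus young difference was 1.71 (limma, unadjusted p = 0.00367, adjusted p = 0.283). Old replicate 3, which had the high Xist value, was also the lowest of the old samples for this gene. Without it the difference was 2.23 (limma, adjusted p = 0.0462). Leaving out the old sample that goes most against a difference widens it, so this fit lends no weight. Gstp1, a glutathione transferase, had 8.74 to 9.43 in old and 9.87 to 10.10 in young GFP-positive samples, with a difference of -0.89 (limma, adjusted p = 0.112).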
